A study of Mus musculus with 30 samples.

Results

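The genes described here are 32 mouse genes of the NRF2 pathway and of antioxidant defence. They were chosen by symbol, with earlier results of these data known. The counts of each were taken by Ensembl gene ID from every library of the study. All 32 were found among the 32361 gene IDs measured, and all 32 passed the filter on low counts that left 15119 genes for testing. The study measured RNA in macrophages grown for 6 days from C57BL/6J bone marrow in medium with L929 supernatant, a source of M-CSF. Ticam2-/- macrophages (KO) lacked TRAM, the adaptor that links the receptor TLR4 to TRIF, and were compared with wild-type macrophages (WT). Cells of each genotype received LPS at 10 ng/mL, a ligand of TLR4, for 2 h or 6 h, or LTA at 100 ng/mL, a ligand of TLR2, for 2 h or 6 h, or were left untreated (UT). These 10 groups held 3 libraries each, 1 for each of 3 KO or 3 WT animals, so p-values measure the spread between the cultures of these animals. The allele was constitutive, so the whole differentiation took place without TRAM. The libraries are bulk samples, in which fewer cells of a type and less RNA per cell cannot be told apart.

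NRF2, encoded by Nfe2l2, is a transcription factor that binds antioxidant response elements together with small MAF proteins such as MAFG. At rest KEAP1 brings it to a cullin 3 ubiquitin ligase and it is degraded, while oxidants and electrophiles modify KEAP1, and the autophagy receptor p62 (Sqstm1) sequesters it, so that NRF2 accumulates. NRF2 is therefore regulated mainly as a protein, and its classical targets supply glutathione, reduced thioredoxin, NADPH and heme breakdown, which in stimulated macrophages counter the oxidants of the NADPH oxidase. Several members answer to other factors as well: Sod2 is a known NF-κB target and Slc7a11 a known ATF4 target.

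Promoter windows of 300 bases, 250 before and 50 after the annotated start, were in the RefSeq table (GRCm38.p6) for 26 of the 32 members. The core of the antioxidant response element, TGACNNNGC, was in 10 of these 26 windows (38.5%), against 14.0% of the windows of all 27025 genes, when both strands were searched. The stricter form TGACTCAGC, of the same length, was in the windows of Prdx1 and Me1, 7.7% of the 26, against 0.503% of all windows. The AP-1 motif TGACTCA, which is part of that stricter form, was in 5 members (19.2%, Srxn1, Prdx1, Osgin1, Me1 and Gstp1), against 5.95% of all windows. A match describes the letters of a window, and elements outside it were not searched. The motif TGATGCAAA, which ATF4 heterodimers are known to bind, was searched after the data had been seen, because Slc7a11 rose most. It was in 1 of the 26 windows (3.8%), that of Slc7a11, which held 2 copies on opposite strands, and in 0.315% of all windows.

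The windows below are those of Srxn1, Gclm and Slc7a11, 3 members on which the results turn. Single cores with their flanks follow, from the transcription factor gene itself, from both genes with the stricter form and from Txnrd1. Capitals mark the motifs: in Srxn1 2 AP-1 motifs and, after the start, an ARE core read on the other strand, in Gclm an ARE core read on the other strand, in Slc7a11 both TGATGCAAA copies, and in the short windows the ARE core. Each is written 5′ to 3′ in the direction of its stated strand.
Srxn1, chr2:152105274-152105573, plus strand: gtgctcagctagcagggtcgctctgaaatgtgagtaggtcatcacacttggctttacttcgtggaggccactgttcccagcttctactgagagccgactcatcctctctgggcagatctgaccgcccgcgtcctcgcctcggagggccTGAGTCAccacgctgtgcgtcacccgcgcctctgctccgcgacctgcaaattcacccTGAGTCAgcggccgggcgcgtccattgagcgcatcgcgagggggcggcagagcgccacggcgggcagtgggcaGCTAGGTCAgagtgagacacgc
Gclm, chr3:122245307-122245606, plus strand: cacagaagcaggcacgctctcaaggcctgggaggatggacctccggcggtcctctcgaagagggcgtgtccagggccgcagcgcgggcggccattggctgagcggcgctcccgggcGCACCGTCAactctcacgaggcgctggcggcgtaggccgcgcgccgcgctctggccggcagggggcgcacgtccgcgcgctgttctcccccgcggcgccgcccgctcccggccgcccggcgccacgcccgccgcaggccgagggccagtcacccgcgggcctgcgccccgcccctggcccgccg
Slc7a11, chr3:50443564-50443863, minus strand: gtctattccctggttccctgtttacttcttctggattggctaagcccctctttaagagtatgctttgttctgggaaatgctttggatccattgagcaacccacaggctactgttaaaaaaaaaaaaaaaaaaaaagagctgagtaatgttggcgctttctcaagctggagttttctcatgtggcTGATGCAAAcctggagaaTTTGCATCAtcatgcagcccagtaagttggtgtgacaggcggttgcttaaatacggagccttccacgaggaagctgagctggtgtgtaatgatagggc
Nfe2l2, chr2:75704885-75704913, minus strand: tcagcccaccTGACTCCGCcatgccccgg
Prdx1, chr4:116685456-116685484, minus strand: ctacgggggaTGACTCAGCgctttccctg
Me1, chr9:86695902-86695930, minus strand: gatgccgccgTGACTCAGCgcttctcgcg
Txnrd1, chr10:82859104-82859132, minus strand: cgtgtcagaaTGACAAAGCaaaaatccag

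Levels are CPM (counts scaled to a common library size) after TMM normalisation, and a gene is called changed where edgeR's quasi-likelihood test, adjusted by Benjamini-Hochberg over all 15119 genes, gave a p under 0.05. Depth was 10641070 to 13521660 counts for the 18 libraries at rest or at 6 h, and 1334784 to 2658329 for the 12 libraries at 2 h, so values at 2 h rest on fewer reads. Ticam2 measured 0.355 to 2.14 CPM in KO libraries at rest and at 6 h and 0.708 to 5.01 CPM in KO libraries at 2 h, against 9.1 to 28.2 CPM in WT libraries. The KO library with most Ticam2 was replicate 2 of LPS at 2 h. Macrophage markers were all detected. Marker sums are in CPM of total counts, without TMM factors. Erythroid markers summed to 5599.6 to 7733 CPM in the untreated and 6 h libraries and to at most 0.46 CPM at 2 h, where 5 of 7 were at 0. Hepatocyte markers summed to 19.8 to 28.7 CPM in the untreated and 6 h libraries and to 43.8 to 90.4 CPM at 2 h. The 2 h libraries therefore form a set of their own, and time and library set cannot be told apart in a comparison of 2 h with untreated cells. TMM factors averaged 0.699 in WT cells with LPS at 6 h and 0.748 in WT cells with LTA at 6 h, and 1.004 to 1.148 in the other 8 groups. The median of all genes in KO over WT at 6 h was therefore 0.54 log2 with LPS and 0.44 with LTA when libraries were scaled by total counts, against 0.01 in each with TMM. In WT cells at 6 h over untreated cells it was -0.66 log2 with LPS and -0.58 with LTA by total counts, against 0.03 (LPS) and 0.01 (LTA) with TMM. For 8 members (Mafg, Gclm, Prdx1, Me1, Gpx4, Sod2, Gstp1 and Esd) the deposited values were not whole in 20 or more of the 30 libraries, so a count can be split with another gene and their levels are less certain.

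At 6 h most of the 32 genes were higher in stimulated than in untreated macrophages of both genotypes. In KO cells 25 members rose and 7 fell with LPS, and 25 rose and 7 fell with LTA, where 25.7% of all genes rose with each ligand and 26.6% (LPS) or 26.5% (LTA) fell. In WT cells 20 members rose and 8 fell with LPS (36.6% and 36.1% of all genes), and 24 rose and 6 fell with LTA (35.4% and 35.9% of all genes). The median member changed by 0.73 log2 with LPS and 0.81 with LTA in KO cells and by 0.58 and 0.82 in WT cells, where the medians of all genes lay between 0 and 0.03. The 4 responses share their untreated libraries within a genotype.

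The same 19 genes rose in all 4 of these responses. They were Nfe2l2 and Mafg, p62 (Sqstm1), the cystine transporter Slc7a11, glutathione reductase (Gsr), thioredoxin and its reductase (Txn1, Txnrd1), sulfiredoxin (Srxn1), the peroxiredoxins Prdx1, Prdx5 and Prdx6, mitochondrial superoxide dismutase (Sod2), the heme enzymes Hmox1 and Blvrb, Gstm1, Me1, Osgin1, Abcc1 and Esd. The 5 genes Blvra, Gpx1, Gpx4, Gstp1 and Sod1 fell in all 4. What share of all genes rose or fell in all 4 responses was not counted. The largest rise in each was that of Slc7a11, by 5.83 ± 0.08 log2 with LPS and 6.28 ± 0.08 with LTA in KO cells and by 5.71 ± 0.07 and 6.78 ± 0.07 in WT cells (± SE). With scaling by total counts the split in WT cells was 11 higher and 15 lower with LPS and 18 higher and 10 lower with LTA. Of all 15119 genes that scaling called 2450 higher and 9630 lower with LPS, and 2375 higher and 9414 lower with LTA. In WT cells with LPS, Mafg, Srxn1, Prdx1, Prdx6, Me1, Gstm1, Blvrb and Osgin1 changed sign with it, and in WT cells with LTA so did Nqo1, Prdx6, Cat and Gstm1.

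**Figure D1:**
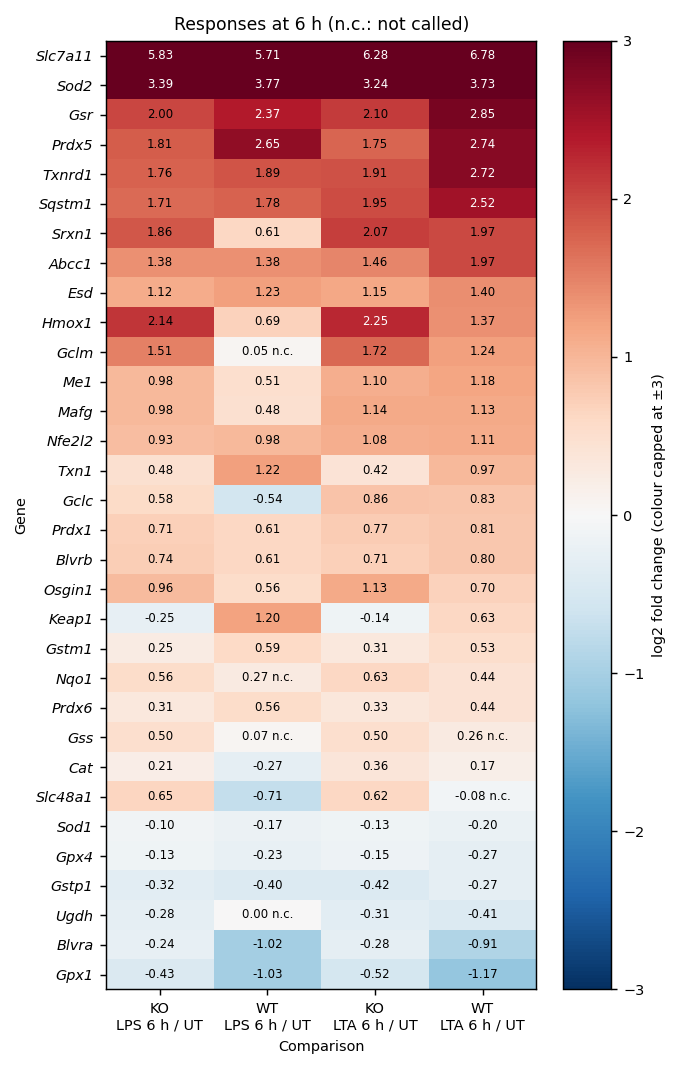
Heat map of log2 changes at 6 h over untreated cells for the 32 genes, with columns for KO and WT cells with LPS and with LTA. Colours stop at 3 in either direction, numbers are log2 fold changes and n.c. marks a change that was not called. Slc7a11 has the highest values (5.71 to 6.78), and Gclm is not called in WT cells with LPS (0.05) while it reaches 1.24 to 1.72 in the other 3 columns.

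At rest the genotypes differed in 12 of the 32 genes. In KO cells 5 members were higher and 7 lower, where 5.97% of all genes were higher and 7.47% lower. The lower members were Slc7a11 (-1.23 ± 0.13 log2, adjusted p = 2.4e-10), Hmox1 (-0.74 ± 0.04, 6.0e-20), Sod2 (-0.73 ± 0.05, 7.6e-18), Prdx5 (-0.29 ± 0.05, 0.00013), Mafg, Esd and Nfe2l2. The higher members were the glutathione transferases Gstm1 (0.53 ± 0.06, 2.1e-09) and Gstp1 (0.38 ± 0.09, 0.00297), catalase (Cat, 0.30 ± 0.04, 2.3e-07), Sqstm1 and Blvrb. Nfe2l2 (-0.12 ± 0.04, adjusted p = 0.0195) was not called without KO replicate 1 (-0.08) or without any 1 of the WT replicates (-0.12). Mafg (-0.15 ± 0.05, adjusted p = 0.0209) was not called without replicate 1 or 2 of either genotype (-0.14 to -0.13), nor Gstp1 without WT replicate 2 (0.30). Counts were 3 to 6 higher and 4 to 7 lower when each library was left out in turn. There were 3 higher members without WT replicate 2 or 3 or KO replicate 3, and 4 lower members without WT replicate 1 or 2 or KO replicate 1. With total counts 7 were higher and 5 lower.

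With LPS at 6 h KO cells held more RNA of Gclm, Gclc, Srxn1 and the heme genes Slc48a1, Blvra and Hmox1, and less of Keap1, Prdx5, Sod2, Slc7a11 and Txn1. Higher in KO cells were 19 members and lower were 12, where 32.7% of all genes were higher and 30.6% lower, and p62 (Sqstm1) alone was not called (0.08; called at 0.11 without KO replicate 3). The values of 18 members lay above those of WT cells in every library and those of 11 below. Separation of this kind was not counted over all genes. The largest differences upward were those of Gclm (1.36 ± 0.04 log2, edgeR adjusted p = 5.0e-36), the endosomal heme transporter Slc48a1 (1.33 ± 0.05, 4.0e-31), Srxn1 (1.23 ± 0.06, 2.4e-25), Gclc (0.95 ± 0.10, 2.7e-12), biliverdin reductase A (Blvra, 0.85 ± 0.06), catalase (0.78 ± 0.04), Gpx1 (0.72 ± 0.05) and Hmox1 (0.71 ± 0.04). The largest downward were those of Keap1 (-1.43 ± 0.05, 2.8e-32), Prdx5 (-1.13 ± 0.05), Sod2 (-1.11 ± 0.05), Slc7a11 (-1.10 ± 0.04) and Txn1 (-0.74 ± 0.04). With total counts 26 members were higher and 5 lower, where 9268 of all 15119 genes were higher and 2191 lower. Nfe2l2 (0.35), Gsr (0.06), Txnrd1 (0.43), Prdx6, Abcc1, Ugdh and Esd changed sign, with it, while Keap1 (-0.91), Prdx5, Sod2, Slc7a11 and Txn1 stayed lower.

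With LTA at 6 h 12 members were higher in KO than in WT cells and 12 lower, where 30.5% of all genes were higher and 28.0% lower. The lower genes were led by Slc7a11 (-1.72 ± 0.04 log2, adjusted p = 3.3e-38), Prdx5 (-1.27 ± 0.05), Sod2 (-1.21 ± 0.05), Gsr (-0.85 ± 0.04), Txnrd1 (-0.77 ± 0.04), Keap1 (-0.74 ± 0.05) and Abcc1 (-0.64 ± 0.04). The higher genes were led by Gpx1 (0.78 ± 0.05), Blvra (0.70 ± 0.06), Slc48a1 (0.65 ± 0.05), Cat (0.50 ± 0.04) and Gclm (0.39 ± 0.04). With LPS and with LTA alike 12 genes were higher in KO cells (Blvra, Cat, Gclm, Gpx1, Gpx4, Gss, Gstm1, Hmox1, Nqo1, Osgin1, Slc48a1 and Sod1). Lower with both were 10 (Abcc1, Esd, Gsr, Keap1, Nfe2l2, Prdx5, Slc7a11, Sod2, Txn1 and Txnrd1), while Mafg was higher with LPS and lower with LTA. The share of all genes called alike with both ligands was not counted. The split with LTA was 22 higher and 8 lower with total counts, where 8906 of all genes were higher and 1836 lower, and the signs of Nfe2l2, Mafg, Sqstm1 (0.02) and Esd changed. It was 8 higher and 14 lower with DESeq2 or with RLE factors.

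Markers of other cell types also differed between the genotypes at 6 h. With LPS and TMM scaling 5 of 6 erythroid markers tested were lower in KO cells, and 3 of 5 neutrophil markers were lower. In CPM of total counts the summed erythroid markers of the genotypes overlapped with LPS at 6 h. They were 5599.6 to 7106.5 CPM in KO cells and 5909.6 to 7733.2 CPM in WT cells. Summed neutrophil markers did not overlap there, with at most 14.3 CPM in KO cells and at least 20.4 CPM in WT cells. Fibroblast markers summed to 8.83 to 12.9 CPM of total counts in KO cells at 6 h, against 39.9 to 43.5 CPM in WT cells with LPS and 75.2 to 77.3 CPM in WT cells with LTA, mostly through Pdgfrb. Macrophage markers summed to 22690.0 to 24077 CPM of total counts in KO cells with LPS at 6 h, against 14159 to 15416 CPM in WT cells, whereas with TMM scaling 3 of 8 were higher and 5 lower in KO cells (median -0.27 log2). The part of these differences in the results for the 32 genes was not tested.

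The genotype difference in the response itself was also tested, as the log2 change over untreated cells in KO cells minus that in WT cells, so that its sign gives the direction and not the size of a response. This difference was above 0 for 11 members with LPS at 6 h and below 0 for 8 (27.0% and 23.5% of all genes), and 7 higher and 11 lower with LTA (24.8% and 20.1%). With LPS it was 1.46 ± 0.06 log2 for Gclm (adjusted p = 9.4e-30), 1.45 ± 0.06 for Hmox1 (7.2e-28) and 1.25 ± 0.09 for Srxn1 (1.3e-17), which rose in KO cells by 1.51, 2.14 and 1.86 log2, against 0.05 (not called), 0.69 and 0.61 in WT cells. It was 1.37 ± 0.07 for Slc48a1 (5.8e-25) and 1.12 ± 0.13 for Gclc (3.0e-10), which rose in KO cells and fell in WT cells. Blvra (0.78 ± 0.07) fell in both, by -0.24 in KO cells and -1.02 in WT cells. The difference was -1.45 ± 0.07 (5.4e-25) for Keap1, which fell in KO cells and rose in WT cells, and -0.84 ± 0.08 (2.0e-12) for Prdx5, which rose in both. For Slc7a11 the responses to LPS did not differ beyond their error with TMM scaling (0.13 ± 0.14, adjusted p = 0.536). Its lower level in KO cells at 6 h was less marked with total counts, so this result is given for TMM scaling alone. The split depended on scaling. With total counts it was 27 above 0 and 3 below with LPS, where 8452 and 1647 of all genes were so called, and 21 and 6 with LTA, where 7971 and 1262 were. With DESeq2 it was 10 and 12 with LPS and 5 and 14 with LTA.

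At 2 h the difference between the genotypes ran almost wholly one way. With LPS 20 members were higher in KO than in WT cells and 1 lower, where 9.11% of all genes were higher and 7.24% lower, and with LTA 22 were higher and 1 lower, where 7.83% were higher and 5.21% lower. The median member differed by 0.42 log2 with LPS and 0.53 log2 with LTA. Higher with both ligands were 19 genes, among them Nfe2l2, Mafg and p62, the glutathione genes Slc7a11, Gclc, Gclm and Gsr, the thioredoxin genes Txn1, Txnrd1 and Srxn1, Sod2 and Hmox1. What share of all genes was higher with both ligands was not counted. Among the members Gpx1 alone was lower, by -0.21 ± 0.05 log2 with LPS and -0.29 ± 0.05 with LTA. Keap1 was not called (-0.03 ± 0.10 and 0.12 ± 0.10). These comparisons lie within the 2 h libraries, in which the summed hepatocyte markers of KO and WT cells overlapped. Leaving out single libraries gave 17 to 20 higher with LPS and 19 to 22 with LTA, with 17 for LPS when KO replicate 2 was left out. Gclc lost its call with LPS without KO replicate 2 or 3 or WT replicate 1 or 2 (0.44 to 0.53) and with LTA without WT replicate 3 (0.46). Osgin1 lost its call with LPS without KO replicate 2 or WT replicate 2 or 3 (0.76 to 0.86) and with LTA without KO replicate 2 or WT replicate 1 or 3 (0.84 to 0.89).

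Some genes changed sides between the 2 h and the 6 h libraries, where time and library set cannot be told apart. Higher in KO cells at 2 h with both ligands and lower at 6 h with both were 9 members. These were Nfe2l2, Slc7a11, Gsr, Txn1, Txnrd1, Prdx5, Sod2, Abcc1 and Esd. How many of all genes changed sides in this way was not counted. Gclm, Hmox1, Osgin1 and Slc48a1 were higher in KO cells at both times with both ligands, and the share of all genes so called was not counted. The calls of Hmox1 with LTA at 6 h and of Osgin1 at 2 h were lost when some single libraries were left out. For Nfe2l2, Gsr, Txnrd1, Abcc1 and Esd the lower level at 6 h with LPS changed sign with total counts, and for Nfe2l2 and Esd that with LTA did so too.

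**Figure D2:**
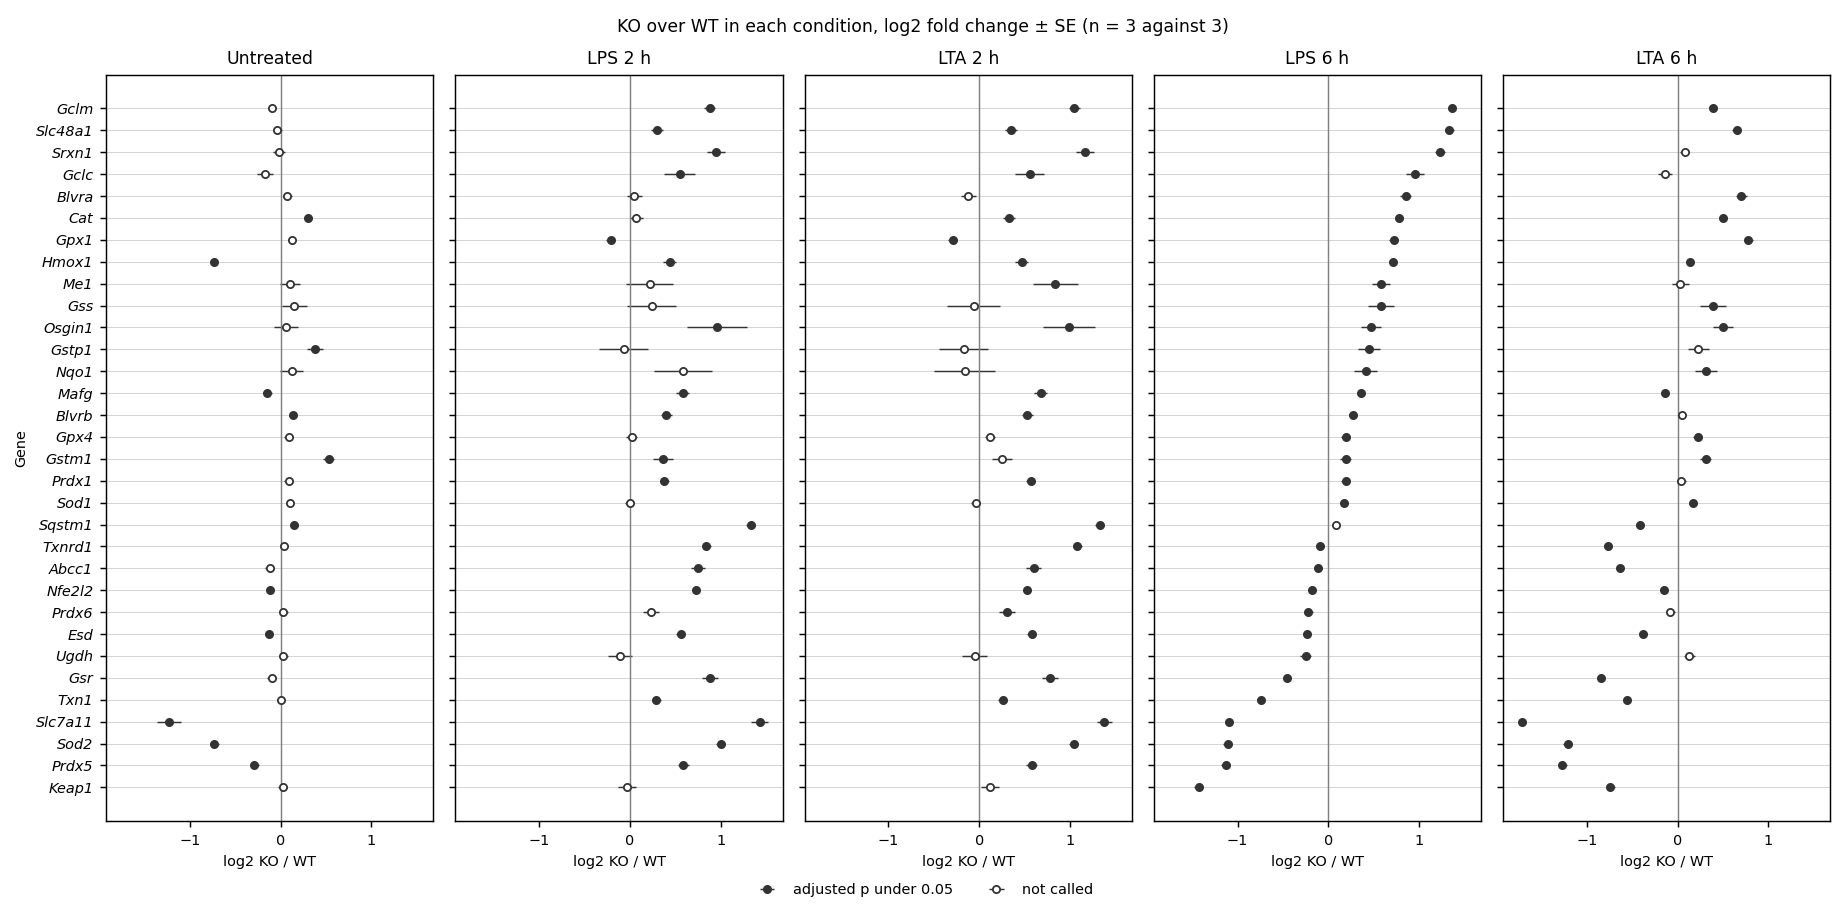
Log2 difference of KO over WT cells for the 32 genes in 5 panels (untreated, LPS at 2 h, LTA at 2 h, LPS at 6 h, LTA at 6 h), with bars for the SE and filled points for adjusted p under 0.05. Genes run by their difference with LPS at 6 h, Gclm at the top and Keap1 at the bottom. At 2 h 20 (LPS) and 22 (LTA) points are filled to the right of 0 and 1 to the left in each, while at 6 h filled points lie on both sides.

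Set against untreated cells, the 2 h libraries gave 21 higher and 5 lower members with LPS in KO cells (26.8% and 30.4% of all genes) and 19 and 6 with LTA (26.3% and 29.7%). In WT cells they gave 14 and 9 with LPS (19.5% and 25.5%) and 14 and 8 with LTA (19.0% and 23.9%). With total counts the KO split with LPS was 16 higher and 8 lower. The genotype difference in these responses was tested after the data had been seen. The library set is common to both genotypes in it, but no untreated cells were in the 2 h set. A genotype difference that varies between the library sets therefore cannot be told apart from one in the response. The tested difference was above 0 for 18 members and below 0 for 2 with LPS (10.0% and 7.90% of all genes). With LTA it was so for 19 and 1 (9.02% and 6.33% of all genes, and 18 and 4 members with total counts). Slc7a11 led it, by 2.66 ± 0.16 log2 with LPS and 2.61 ± 0.16 with LTA, followed by Sod2 with 1.73 ± 0.07 and 1.77 ± 0.07.

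LPS and LTA were given at different doses, so their values are set side by side at each time without reading one ligand as the stronger. In WT cells at 6 h 4 members were higher with LPS than with LTA and 17 lower, where 17.9% of all genes were higher and 14.0% lower. Lower with LPS were Gclc (-1.37 ± 0.09 log2, adjusted p = 5.0e-17), Srxn1 (-1.36 ± 0.06, 3.1e-26), Gclm (-1.18 ± 0.04, 5.7e-32), Slc7a11 (-1.07 ± 0.04, 2.2e-28), Txnrd1 (-0.82 ± 0.04), Sqstm1 (-0.74 ± 0.04), Hmox1 (-0.67 ± 0.04) and Mafg (-0.65 ± 0.04). Higher with LPS were Keap1 (0.57 ± 0.05), Ugdh (0.41 ± 0.06), Txn1 and Gpx1. In KO cells 9 members were lower with LPS and 0 higher (1.32% and 1.34% of all genes), 1 member (Sod2) was higher at an unadjusted p under 0.05, and DESeq2 called 1 higher. The largest difference in KO cells was that of Slc7a11 (-0.45 ± 0.04), followed by Gclc (-0.28 ± 0.08), Sqstm1 (-0.24 ± 0.04), Gclm (-0.21 ± 0.04) and Srxn1 (-0.20 ± 0.05). Without any 1 library other than LPS replicate 1 the lower count in KO cells was 3 to 5, and Gclc, Srxn1, Txnrd1 or Mafg lost their calls, while without LPS replicate 1 the count of higher members was 2.

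The test of this difference between the genotypes, added after the data had been seen, called 14 members with a higher LPS over LTA ratio in KO than in WT cells and 3 with a lower one (9.14% and 13.5% of all genes). Srxn1 (1.15 ± 0.08 log2, adjusted p = 1.4e-17), Gclc (1.09 ± 0.12, 6.8e-10) and Gclm (0.97 ± 0.05, 1.3e-21) led the first and Keap1 (-0.68 ± 0.07, 1.5e-11) the second. At 2 h the ligands differed in few members. In KO cells Gclm (-0.38 ± 0.05, 8.8e-07) and Prdx1 (-0.19 ± 0.05, 0.0326) were lower with LPS and 0 were higher (0.258% and 1.14% of all genes), with 1 (Sod2) higher at an unadjusted p under 0.05 and 1 by DESeq2. In WT cells Nfe2l2 (-0.20 ± 0.05, 0.00807) was lower with LPS and Sod2 (0.21 ± 0.06, 0.0463) higher (0.0992% and 1.10% of all genes). With single libraries left out, Nfe2l2 lost its call without LPS replicate 1 or 2 or LTA replicate 3 (-0.19 to -0.18), Sod2 without replicate 2 or 3 of either ligand (0.15 to 0.21). In KO cells Prdx1 lost its call without any 1 of the LTA replicates or LPS replicate 2 or 3 (-0.20 to -0.14).

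**Figure D3:**
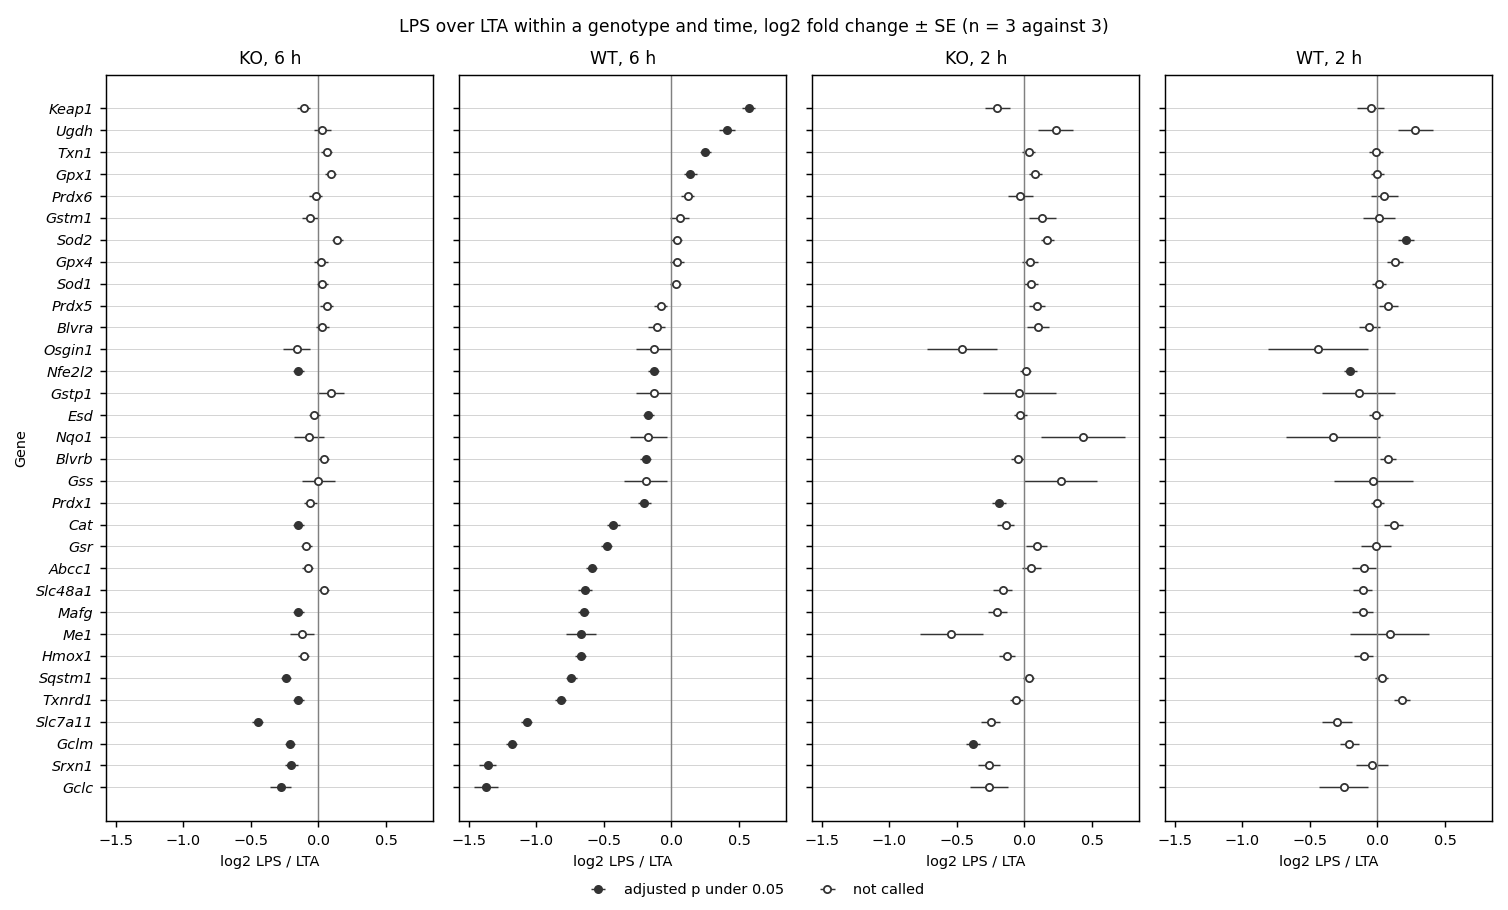
Log2 difference of LPS over LTA for the 32 genes in 4 panels (KO at 6 h, WT at 6 h, KO at 2 h, WT at 2 h), with bars for the SE and filled points for adjusted p under 0.05. Doses were 10 ng/mL of LPS and 100 ng/mL of LTA. In WT cells at 6 h values run to -1.37 (Gclc) at the low end and 0.57 (Keap1) at the high end, while in KO cells they lie between -0.45 and 0.14.

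The regulators of the pathway are given first, library by library. Nfe2l2 with LPS measured 731, 771 and 720 CPM in KO libraries at 2 h and 521, 506 and 505 at 6 h, against 255, 272 and 278 in untreated KO libraries. In WT cells it measured 444, 442 and 455 CPM with LPS at 2 h and 574, 607 and 549 at 6 h, against 292, 293 and 294 untreated. With LTA it measured 738, 738 and 739 CPM at 2 h and 560, 563 and 579 at 6 h in KO libraries, and 503, 513 and 523 at 2 h and 624, 635 and 635 at 6 h in WT libraries. Stimulated and untreated libraries did not overlap, and at 2 h every KO library lay above every WT library with the same ligand, whereas at 6 h every KO library lay below. The KO over WT difference at 2 h was 0.73 ± 0.04 log2 with LPS and 0.53 ± 0.04 with LTA (adjusted p = 7.9e-20 and 2.2e-14), and -0.18 ± 0.04 and -0.15 ± 0.04 at 6 h.

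Keap1, the inhibitor, stood apart from the others at 6 h. With LPS at 6 h it measured 57.1, 52.8 and 56.0 CPM in KO libraries, against 155, 151 and 141 in WT libraries, and with LTA 57.2, 60.0 and 62.4 CPM in KO libraries, against 99.5, 100.0 and 101 in WT libraries. Untreated libraries held 61.8, 67.6 and 67.8 CPM in KO cells and 64.5, 64.4 and 65.7 in WT cells. Keap1 therefore rose in WT cells, by 1.20 ± 0.05 log2 with LPS and 0.63 ± 0.05 with LTA, and fell in KO cells, by -0.25 ± 0.05 and -0.14 ± 0.05. With total counts the rise of Keap1 in WT cells with LTA was not called (0.03), and its fall in KO cells with LTA lost its call without LTA replicate 1 or 2 or untreated replicate 2 or 3 (-0.14 to -0.10). At 2 h the 12 libraries lay between 52.4 and 68.9 CPM, and KO and WT libraries overlapped with both ligands.

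Mafg, the small MAF partner, measured 173, 170 and 172 CPM in KO libraries with LPS at 6 h, against 137, 133 and 131 in WT libraries. With LTA at 6 h it measured 187, 196 and 191 CPM in KO libraries, against 206, 220 and 206 in WT libraries. At 2 h KO libraries held 118, 135 and 123 CPM with LPS and 142, 144 and 152 with LTA, against 78.7, 81.4 and 90.7 with LPS and 98.2, 89.5 and 86.9 with LTA in WT libraries. KO libraries thus lay above WT libraries in 3 of these 4 conditions without overlap and below them with LTA at 6 h, where the difference was -0.14 ± 0.04 log2, against 0.36 ± 0.04 with LPS at 6 h. Untreated libraries held 85.3, 86.0 and 89.3 CPM in KO cells and 98.0, 97.8 and 92.9 in WT cells.

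Sqstm1 encodes p62, which binds KEAP1 and is itself an NRF2 target. At 2 h it measured 1311, 1439 and 1360 CPM with LPS and 1335, 1353 and 1343 with LTA in KO libraries, against 505, 559 and 567 with LPS and 548, 513 and 545 with LTA in WT libraries. At 6 h it measured 1085, 1085 and 1036 CPM with LPS and 1236, 1245 and 1311 with LTA in KO libraries, against 981, 1039 and 1018 with LPS and 1713, 1622 and 1722 with LTA in WT libraries. The genotypes did not overlap at 2 h (1.33 ± 0.05 log2 with each ligand, adjusted p = 9.7e-30 and 2.8e-29). At 6 h the difference was not called with LPS (0.08 ± 0.04) and was -0.42 ± 0.04 with LTA, which was 0.02 with total counts. Untreated libraries held 321, 327 and 331 CPM in KO cells and 305, 306 and 271 in WT cells.

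Among the glutathione genes, Slc7a11 imports the cystine from which glutathione is made. Untreated libraries held 2.26, 3.48 and 3.12 CPM in KO cells, against 6.56, 7.20 and 7.15 in WT cells. At 2 h KO libraries held 131, 127 and 132 CPM with LPS and 151, 155 and 157 with LTA, against 52.3, 39.3 and 51.0 with LPS and 55.2, 59.1 and 62.3 with LTA in WT libraries. At 6 h KO libraries held 180, 169 and 161 CPM with LPS and 234, 228 and 235 with LTA, against 355, 384 and 355 with LPS and 759, 771 and 769 with LTA in WT libraries. The genotypes overlapped in none of the 5 conditions, and KO cells were lower at rest and at 6 h and higher at 2 h. The difference at 2 h was 1.43 ± 0.09 log2 with LPS and 1.38 ± 0.08 with LTA (adjusted p = 2.1e-19 and 1.5e-19), and the lower level at 6 h held with total counts (-0.58 with LPS and -1.29 with LTA).

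Gclm and Gclc encode the modifier and catalytic subunits of glutamate-cysteine ligase, the rate-limiting enzyme of glutathione synthesis. With LPS at 6 h Gclm measured 367, 376 and 382 CPM in KO libraries, against 146, 149 and 145 in WT libraries, and with LTA 433, 426 and 442 CPM in KO libraries, against 328, 333 and 336 in WT libraries. Untreated libraries held 127, 135 and 132 CPM in KO cells and 144, 137 and 141 in WT cells. WT cells with LPS at 6 h thus stayed near the untreated level (0.05 ± 0.04 log2, adjusted p = 0.218), whereas Gclm rose by 1.24 ± 0.04 in WT cells with LTA and by 1.51 ± 0.04 (LPS) and 1.72 ± 0.04 (LTA) in KO cells. At 2 h KO libraries held 204, 190 and 195 CPM with LPS and 259, 259 and 245 with LTA, against 106 in each WT library with LPS and 118, 125 and 125 with LTA, and the difference was 0.88 ± 0.06 (LPS) and 1.05 ± 0.06 log2 (LTA).

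Gclc followed Gclm with LPS but not with LTA. At 6 h it averaged 40.7 ± 3.65 CPM with LPS and 49.4 ± 2.23 with LTA in KO cells, against 21.0 ± 3.67 with LPS and 54.2 ± 4.19 with LTA in WT cells (± SD, n = 3 each). Its change over untreated cells was 0.58 ± 0.08 log2 with LPS in KO cells and -0.54 ± 0.10 in WT cells, so with LPS it rose in KO cells and fell in WT cells. Glutathione synthetase (Gss), the next enzyme, stayed between 4.89 and 8.57 CPM in the means of the 10 groups and was higher in KO cells at 6 h (0.58 ± 0.14 log2 with LPS and 0.39 ± 0.14 with LTA). The call with LTA was lost without WT replicate 3 (0.15) or KO replicate 2 (0.34).

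Gsr, which regenerates reduced glutathione, was higher in KO than in WT cells at 2 h and lower at 6 h. At 6 h it measured 409, 434 and 410 CPM with LPS and 443, 453 and 442 with LTA in KO libraries, against 547, 603 and 573 with LPS and 784, 806 and 819 with LTA in WT libraries. At 2 h it measured 94.9, 96.5 and 107 CPM with LPS and 96.1, 84.7 and 99.8 with LTA in KO libraries, against 46.1, 63.2 and 52.9 with LPS and 54.0, 48.9 and 59.4 with LTA in WT libraries. KO and WT libraries did not overlap in these 4 conditions, and untreated libraries lay between 100.0 and 112 CPM in both genotypes. The KO over WT difference was 0.88 ± 0.09 log2 (LPS) and 0.78 ± 0.09 (LTA) at 2 h and -0.46 ± 0.04 (LPS; 0.06 with total counts) and -0.85 ± 0.04 (LTA) at 6 h.

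**Figure D4:**
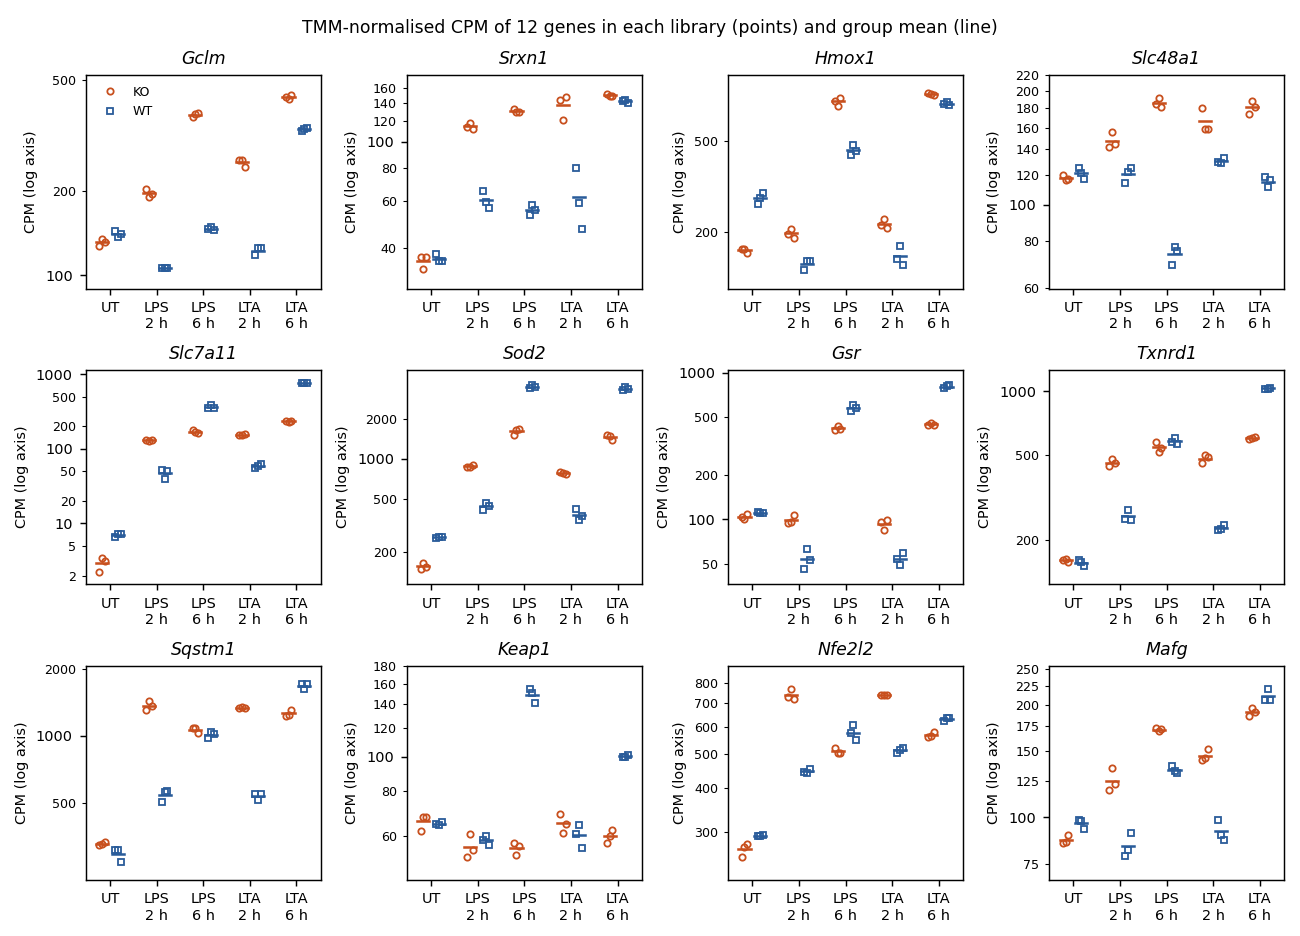
Level of 12 of the genes in each library, in CPM after TMM scaling on a log axis, for untreated cells and LPS or LTA at 2 h and 6 h. Circles are KO libraries, squares to their right WT libraries, and lines group means. Gclm and Srxn1 in WT cells lie lower with LPS than with LTA at 6 h, and Keap1 separates the genotypes at 6 h (52.8 to 62.4 CPM in KO libraries against 99.5 to 155 in WT libraries).

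The thioredoxin system reduces peroxiredoxins, which in turn reduce peroxides. At 2 h Txnrd1, thioredoxin reductase, measured 445, 479 and 462 CPM with LPS and 459, 501 and 490 with LTA in KO libraries, against 253, 277 and 249 with LPS and 224, 226 and 235 with LTA in WT libraries. At 6 h it measured 576, 518 and 544 CPM with LPS and 595, 603 and 613 with LTA in KO libraries, against 581, 604 and 563 with LPS and 1028, 1028 and 1038 with LTA in WT libraries. The genotypes were apart at 2 h and with LTA at 6 h, while with LPS at 6 h KO and WT libraries overlapped (-0.09 ± 0.04 log2, adjusted p = 0.0339, not called without KO replicate 2 or 3, and 0.43 with total counts). Untreated libraries held 151 to 164 CPM in both genotypes.

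Txn1, its substrate, measured 1020.0, 1135 and 1129 CPM with LPS and 1040.0, 1015 and 1090.0 with LTA at 6 h in KO libraries, against 1762, 1872 and 1868 with LPS and 1533, 1564 and 1532 with LTA in WT libraries. No KO library reached a WT library at 6 h, a difference of -0.74 ± 0.04 log2 with LPS and -0.56 ± 0.04 with LTA. At 2 h KO libraries held 837, 748 and 785 CPM with LPS and 792, 737 and 792 with LTA, against 608, 634 and 684 with LPS and 669, 620 and 649 with LTA in WT libraries. In both genotypes untreated libraries lay between 761 and 810 CPM.

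Srxn1, sulfiredoxin, repairs overoxidised peroxiredoxins. With LPS at 6 h it measured 133, 129 and 129 CPM in KO libraries, against 53.2, 57.9 and 55.4 in WT libraries, and with LTA 151, 149 and 149 CPM in KO libraries, against 142, 144 and 140 in WT libraries. At 2 h it measured 114, 118 and 112 CPM with LPS and 144, 121 and 148 with LTA in KO libraries, against 65.2, 59.2 and 56.2 with LPS and 80.0, 59.1 and 47.1 with LTA in WT libraries. WT cells with LPS at 6 h were thus the only 6 h group near the 2 h level of WT cells, and the genotype difference was 1.23 ± 0.06 log2 with LPS and not called with LTA (0.08 ± 0.05, adjusted p = 0.221). Its rise over untreated cells in WT with LPS, 0.61 ± 0.07, was -0.09 with total counts. Untreated libraries held 33.3 to 37.9 CPM.

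The peroxiredoxins differed among themselves. Prdx1, a cytosolic enzyme, measured 6215, 7565 and 7734 CPM with LPS at 6 h in KO libraries, against 6080.0, 6346 and 6491 in WT libraries. The groups overlapped, and the call (0.19 ± 0.05 log2) was lost without WT replicate 1 (0.11). The 2 h libraries held 3225, 2793 and 3024 CPM with LPS and 3450.0, 3427 and 3437 with LTA in KO libraries, against 2271, 2324 and 2347 with LPS and 2334, 2180.0 and 2424 with LTA in WT libraries. All were below the 4114 to 4430.0 CPM of untreated libraries. Prdx5, found in mitochondria and peroxisomes, averaged at 6 h 1153 ± 68.3 CPM with LPS and 1105 ± 33.3 with LTA in KO cells, against 2521 ± 212 with LPS and 2671 ± 79.9 with LTA in WT cells. Prdx5 was the reverse at 2 h, 759 ± 90.5 CPM with LPS and 710.0 ± 40.3 with LTA in KO cells, against 501 ± 16.0 with LPS and 476 ± 16.2 with LTA in WT cells. Prdx6 stayed between 62.9 and 97.9 CPM in the group means.

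The heme genes were higher in KO cells with LPS at 6 h. At 6 h Hmox1, heme oxygenase, measured 748, 711 and 768 CPM with LPS and 808, 801 and 795 with LTA in KO libraries, against 434, 478 and 454 with LPS and 723, 740.0 and 716 with LTA in WT libraries. Untreated libraries held 170.0, 170.0 and 163 CPM in KO cells, against 267, 282 and 296 in WT cells. KO libraries thus lay below WT libraries at rest and above them at 6 h. The rise was 2.14 ± 0.04 log2 (LPS) and 2.25 ± 0.04 (LTA) in KO cells and 0.69 ± 0.04 (LPS) and 1.37 ± 0.04 (LTA) in WT cells. The rise in WT cells with LPS was 0.00 with total counts, and the KO over WT call with LTA (0.14 ± 0.04) was lost without any 1 of the WT replicates (0.07 to 0.09) and with RLE factors or DESeq2 (0.06). At 2 h Hmox1 measured 196, 208 and 190.0 CPM with LPS and 215, 228 and 210.0 with LTA in KO libraries, against 137, 151 and 150.0 with LPS and 153, 174 and 145 with LTA in WT libraries. At 2 h WT libraries thus lay below and KO libraries above the untreated level of their genotype. Time and library set cannot be told apart in this.

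Slc48a1 exports heme out of endosomes and lysosomes into the cytosol. With LPS at 6 h it measured 185, 191 and 181 CPM in KO libraries, against 69.3, 77.0 and 75.4 in WT libraries, and with LTA 174, 188 and 181 CPM in KO libraries, against 118, 111 and 116 in WT libraries. At 2 h it measured 142, 156 and 145 CPM with LPS and 180.0, 159 and 159 with LTA in KO libraries, against 114, 122 and 125 with LPS and 130.0, 129 and 133 with LTA in WT libraries. Slc48a1 rose in KO cells with LPS at 6 h (0.65 ± 0.04 log2) and fell in WT cells (-0.71 ± 0.05), and untreated libraries lay between 116 and 125 CPM in both genotypes. At 6 h Blvra, which turns biliverdin into bilirubin, averaged 67.1 ± 2.24 CPM with LPS and 65.7 ± 1.37 with LTA in KO cells, against 37.3 ± 2.33 with LPS and 40.4 ± 2.21 with LTA in WT cells. All were below the 79.6 ± 1.67 in untreated KO and 75.8 ± 3.82 in untreated WT cells. Blvrb, the other biliverdin reductase, averaged 381 ± 19.9 CPM with LPS in KO cells, against 316 ± 16.4 in WT cells.

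Among the superoxide and peroxide enzymes, mitochondrial Sod2 separated the genotypes in every condition. At 6 h it measured 1504, 1656 and 1690.0 CPM with LPS and 1507, 1498 and 1383 with LTA in KO libraries, against 3420.0, 3620.0 and 3460.0 with LPS and 3328, 3485 and 3367 with LTA in WT libraries. At 2 h it measured 871, 869 and 895 CPM with LPS and 796, 777 and 766 with LTA in KO libraries, against 411, 464 and 443 with LPS and 423, 344 and 373 with LTA in WT libraries. Untreated libraries held 147, 164 and 153 CPM in KO cells, against 252, 260.0 and 258 in WT cells. Sod2 was thus lower in KO cells at rest and at 6 h and higher at 2 h, by 1.00 ± 0.05 log2 with LPS and 1.04 ± 0.05 with LTA at that time. The cytosolic enzyme Sod1 stayed between 321 and 443 CPM in the group means.

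At 6 h catalase, the peroxisomal enzyme that breaks down hydrogen peroxide, measured 265, 261 and 272 CPM with LPS and 291, 305 and 287 with LTA in KO libraries, against 154, 154 and 156 with LPS and 210.0, 202 and 214 with LTA in WT libraries. Untreated libraries held 231, 226 and 232 CPM in KO cells, against 196, 184 and 179 in WT cells. The genotypes did not overlap in these 3 conditions, and with LPS Cat rose by 0.21 ± 0.04 log2 in KO cells and fell in WT cells (-0.27 ± 0.04). The rise of Cat in WT cells with LTA (0.17 ± 0.04) was -0.43 with total counts. At 2 h Cat measured 160.0, 163 and 169 CPM with LPS and 170.0, 188 and 188 with LTA in KO libraries, against 159, 170.0 and 145 with LPS and 142, 156 and 137 with LTA in WT libraries. The genotypes thus overlapped with LPS.

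The glutathione peroxidase Gpx1 moved against most of the other genes. At 6 h its level averaged 695 ± 44.9 CPM with LPS and 654 ± 8.74 with LTA in KO cells, against 421 ± 17.3 with LPS and 382 ± 5.98 with LTA in WT cells. It averaged 938 ± 8.87 CPM in untreated KO and 862 ± 36.1 in untreated WT cells. Its fall at 6 h was -0.43 ± 0.04 log2 with LPS and -0.52 ± 0.04 with LTA in KO cells and -1.03 ± 0.05 and -1.17 ± 0.05 in WT cells. Gpx4, which reduces lipid peroxides, stayed between 131 and 242 CPM in the group means.

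The remaining members are conjugation enzymes, exporters and others. Gstm1, a glutathione transferase, measured 59.3, 61.8 and 58.2 CPM in untreated KO libraries, against 44.2, 40.7 and 38.6 in untreated WT libraries. With LPS at 6 h it measured 70.8, 70.9 and 71.5 CPM in KO libraries, against 59.0, 58.7 and 68.9 in WT libraries, and with LTA 72.5, 73.3 and 76.2 CPM in KO libraries, against 58.8, 58.8 and 61.6 in WT libraries. At 2 h it measured 77.9, 78.7 and 64.7 CPM with LPS and 78.2, 67.1 and 55.8 with LTA in KO libraries, against 60.2, 54.1 and 58.5 with LPS and 50.3, 66.2 and 55.0 with LTA in WT libraries. Gstm1 was apart at rest and at 6 h and overlapped with LTA at 2 h, and its call with LPS at 6 h (0.19 ± 0.06 log2) was lost without WT replicate 1 or 2 (0.10).

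Nqo1, a quinone reductase often used as a readout of NRF2, was low, with group means between 5.88 and 12.4 CPM. At 6 h it averaged 11.7 ± 1.36 CPM with LPS and 12.4 ± 2.44 with LTA in KO cells, against 8.88 ± 0.477 with LPS and 9.95 ± 0.342 with LTA in WT cells. The other genes at low levels were Me1, which makes NADPH (8.41 to 20.3 CPM), Osgin1 (4.23 to 14.1 CPM) and Gstp1 (7.21 to 12.7 CPM). Abcc1, which exports glutathione conjugates, averaged at 6 h 244 ± 3.91 CPM with LPS and 257 ± 6.66 with LTA in KO cells, against 265 ± 6.44 with LPS and 400.0 ± 11.6 with LTA in WT cells. Esd, an esterase that acts on S-formylglutathione, averaged 932 ± 60.7 CPM with LPS in KO cells, against 1102 ± 57.8 in WT cells. Ugdh, which makes UDP-glucuronate, had group means of 33.1 to 41.2 CPM at 2 h and 58.6 to 79.4 CPM in the other groups.

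Related gene lists were counted in the same fit, and their counts in KO over WT cells stand against 32.7% of all genes higher and 30.6% lower with LPS at 6 h, and 30.5% and 28.0% with LTA. At 2 h these shares were 9.11% and 7.24% with LPS and 7.83% and 5.21% with LTA. With total counts, as given above, most genes were higher in KO cells at 6 h. All 6 NADPH oxidase subunits tested rose at 6 h with each ligand in both genotypes. At 6 h 5 of 6 were lower in KO than in WT cells with LPS, and likewise 5 with LTA. At 2 h 5 were higher in KO cells with LPS, and 4 with LTA. With total counts 5 were higher and 1 lower in KO cells with LPS at 6 h and 3 and 3 with LTA, and in WT cells 4 rose with each ligand, 2 falling with LPS and 1 with LTA. Cybb, the catalytic subunit, differed at 6 h by -1.07 log2 (LPS) and -1.03 (LTA) and at 2 h by 0.41 (LPS) and 0.42 (LTA). Of 11 NADPH supply genes 9 were higher and 1 lower in KO cells with LPS at 6 h, among them isocitrate dehydrogenase 1 (Idh1, 0.91), Mthfd1 (0.83) and G6pdx (0.47), the entry enzyme of the pentose phosphate pathway. With LTA at 6 h 8 of the 11 were higher and 2 lower, and with total counts all 11 were higher with each ligand.

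Of 25 other NRF2 targets 12 were higher and 4 lower in KO cells with LPS at 6 h and 15 higher and 4 lower with LTA (20 and 1, and 22 and 1, with total counts). They included the carbonyl reductase Cbr3 (2.00 and 1.33 log2), the ferritin light chain Ftl1 (0.85 and 0.61) and the iron exporter Slc40a1 (1.29 and 0.97), while Slc3a2, the partner chain of the cystine transporter, was lower (-0.75 and -0.81). At 2 h 3 of the 25 were higher and 2 lower with LPS, and 5 higher and 3 lower with LTA. Of 10 further regulators of NRF2 2 were higher and 4 lower in KO cells with LPS at 6 h and 4 higher and 5 lower with LTA. The small MAF gene Mafk was lower with both (-1.58 and -0.73), whereas Maff was higher with LPS (0.44) and lower with LTA (-1.43). With total counts 8 of these 10 were higher and 1 (LPS) or 2 (LTA) lower.

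Of 22 other peroxidases, dismutases and thiol enzymes 12 were higher and 5 lower in KO cells with LPS at 6 h and 13 higher and 2 lower with LTA (19 and 2, and 19 and 0, with total counts). The sestrin gene Sesn1 led them (3.56 and 2.97 log2), with Mgst3 (0.79) and Glrx5 (0.59) higher and Glrx, a glutaredoxin, lower (-0.84) with LPS. Of 12 ATF4 targets 6 were higher and 4 lower in KO cells with LPS at 6 h (9 and 2 with total counts, 5 and 6 with RLE factors). Asns (0.65) and Phgdh (0.71) were higher and Ddit4 (-3.00) and Psat1 (-0.80) lower. At 2 h 5 of these 12 were higher with LPS and 4 with LTA.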

How the data were processed

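RNA of 30 bulk libraries was analysed, grouped by genotype, treatment and time from the sample labels. The values are expected counts per gene, deposited by the authors in a single table; 25.2% of the values above 0 were not whole. Per the submitters' processing notes the authors used Subread 2.1.1 with featureCounts, SAMtools 1.22.1, STAR 2.7.11 and fastp 0.24.0, on the builds mm10 and GRCm38. No strand setting, annotation or role of each tool was given in the sources used here. The labels' harvest step mentions 6 h alone, and the 12 libraries labelled 2 h were taken as labelled.

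Counts were rounded to whole numbers and fitted in R 4.3.3 with edgeR 4.0.16. filterByExpr (minimum count 10, minimum total 15) kept 15119 genes, and glmQLFit with robust dispersion took a coefficient per group over all 30 libraries after TMM scaling (20 residual degrees of freedom, common biological coefficient of variation 0.0411). glmQLFTest p-values were adjusted by Benjamini-Hochberg over all genes in each of 22 contrasts, of which 3 were added after the data had been seen. SEs are the log2 change divided by the root of the F statistic. Groups were called overlapping or not from log2 CPM with a prior count of 2. Counts were simulated for KO against WT with LPS at 6 h, with 200 of 15119 genes changed. Of changes of log2 size 1 77.4% were recovered and of size 2 96.6%, with 11 false calls. All simulated libraries otherwise shared the same mean profile, so the simulation did not test the effect of scaling. Alternatives were RLE factors, total counts, no filter, the untreated and 6 h or the 2 h libraries fitted alone, a replicate block, DESeq2 1.42.0 and leaving out each library. Replicate pairs differed by more than counting noise, in some pairs by little. The chi-square per degree of freedom ran from 1.09 (WT, LPS at 2 h, replicates 1 and 2) to 8.45 (WT, LPS at 6 h, replicates 1 and 3).

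Symbols came from GENCODE M21, which named 26304 of 32361 IDs. Promoters came from RefSeq. Figures were drawn in matplotlib 3.10.9. The members and lists were chosen with earlier results of these data known. Single library values are given for Nfe2l2, Keap1, Mafg and the members with the smallest p in the main comparisons. Related lists are named by up to 4 genes with the smallest p, and of the NADPH supply genes Nnt, whose symbol has 2 IDs, is left to the closing section. Intervals were not computed for single libraries, and the precision of a level is limited by depth.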

Additional observations from a re-analysis of the deposited data

Results flagged for a closer look

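The test of the genotype difference in a response found the following values, on the log2 scale, as the change in KO cells minus that in WT cells. A positive value can be a larger rise, a smaller fall or a rise against a fall.

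For LPS at 6 h the value was above 0 for 11 members and below 0 for 8, where 27.0% and 23.5% of all genes were so called, and with total counts for 27 and 3. The responses differed for Gclm (1.46) and Gclc (1.12), the subunits that set the rate of glutathione synthesis, for the heme genes Hmox1 (1.45), Slc48a1 (1.37) and Blvra (0.78, a smaller fall in KO cells), for Srxn1 (1.25), for Prdx5 (-0.84) and for Keap1 (-1.45), which fell in KO cells and rose in WT cells.

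For LTA at 6 h the counts were 7 above and 11 below 0 (24.8% and 20.1% of all genes), and with total counts 21 and 6. The responses differed for Hmox1 (0.89), Gclm (0.49), Prdx5 (-0.98), Txnrd1 (-0.81) and Keap1 (-0.77). KO over WT, Hmox1 was -0.74 log2 at rest and, at 6 h, 0.71 with LPS and 0.14 with LTA. Its values for both ligands at 6 h therefore include the lower level of untreated KO cells. The ratio of LPS to LTA at 6 h differed between the genotypes in 14 members upward and 3 downward (9.14% and 13.5% of all genes), led by Srxn1 (1.15), Gclc (1.09), Gclm (0.97) and Keap1 (-0.68).

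At 2 h the counts were 18 and 2 for LPS (10.0% and 7.90% of all genes) and 19 and 1 for LTA (9.02% and 6.33%). A genotype difference in the response and one that varies between the library sets cannot be told apart there. With LPS the largest values were those of Slc7a11 (2.66), Sod2 (1.73), Hmox1 (1.18) and Sqstm1 (1.18), and with LTA those of Slc7a11 (2.61), Sod2 (1.77), Hmox1 (1.22) and Sqstm1 (1.18). For Slc7a11, Sod2 and Hmox1 part of each value is the lower level of untreated KO cells, which enters the response of each ligand and is shared by both.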

How the results depend on the processing

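Scaling by total counts moved most: it gave 11 higher and 15 lower members in WT cells with LPS over untreated at 6 h, 10 lower with LTA, 5 lower in KO over WT with LPS at 6 h, 22 higher with LTA, 8 lower in KO cells with LPS at 2 h over untreated, 0 higher for LPS over LTA in WT cells at 2 h, and 27 and 3 (LPS at 6 h), 21 and 6 (LTA at 6 h) and 4 lower (LTA at 2 h) for the genotype difference in the response. Signs turned with it for Gclm (-0.64), Srxn1 (-0.09) and Mafg (-0.22) in WT cells with LPS at 6 h, Cat (-0.43) in WT cells with LTA, Nfe2l2 (0.35), Gsr (0.06) and Txnrd1 (0.43) in KO over WT with LPS at 6 h and Nfe2l2 (0.28), Mafg (0.29), Gclc (0.30) and Sqstm1 (0.02) with LTA. With RLE factors LPS over LTA at 2 h gave 0 higher in WT cells and 1 lower in KO cells, and with the untreated and 6 h or the 2 h libraries fitted alone 0 higher in WT cells. Without the filter KO over WT at rest gave 4 lower, LPS over LTA in KO cells at 6 h 1 higher and 5 lower and the genotype difference in the LPS response at 2 h 1 lower. DESeq2 gave 1 higher for LPS over LTA in KO cells at 6 h, 1 higher at 2 h and 0 higher in WT cells at 2 h. Same-numbered libraries of a genotype did not deviate together (correlations of -0.07 to 0.05). A small effect of the animal could go unseen in this, so whether the numbers pair libraries could not be decided. A fit with the replicate number as a block gave 0 higher in WT cells for LPS over LTA at 2 h and took the calls of Sod2 there (0.21) and of Gsr in KO cells with LTA at 2 h (-0.16); KO over WT at rest then had 6 higher, the genotype difference in the LPS response at 6 h 10 higher and KO cells with LTA at 2 h 5 lower than untreated. The other 271 values of named genes kept their call, and the other 43 counts lay within 1.5 times. Leaving out each library gave 3 to 6 higher and 4 to 7 lower in KO over WT at rest, 0 to 2 higher and 3 to 9 lower for LPS over LTA in KO cells at 6 h, 1 to 2 lower in KO and 0 to 1 higher and 0 to 1 lower in WT cells at 2 h, and 1 to 2 lower for the genotype difference at 2 h with LPS and with LTA; of the single gene values 1724 kept their call, 67 lost it, 3 gained it and 0 of those called turned sign. The cause of these changes was not tested. Genes under 10 CPM in every 2 h group mean, such as Nqo1, Gss and Gstp1, rest on few reads, and a difference there may not be detectable at this depth.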

Other observations

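Nnt, a mitochondrial enzyme that makes NADPH and in which C57BL/6J mice are known to carry a deletion, differed between the genotypes at rest and at 6 h. It averaged 14.0 ± 0.599 CPM in untreated KO cells, against 6.69 ± 0.269 CPM in untreated WT cells (SD, n = 3 each), and KO over WT it was 1.06 log2 at rest and, at 6 h, 1.07 (LPS) and 1.02 (LTA). In the 2 h libraries KO over WT was -0.02 with each ligand, and the genotype difference in the response at 2 h was -1.08 with each. Its symbol has 2 gene IDs in the table, of which the one with the lower ID number is given, so its level is uncertain, and whether the KO and WT lines differ in background was not tested.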
